A study of Homo sapiens with 6 samples.

Results

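Small structured noncoding RNAs were followed in the esophageal squamous cancer line TE13 and in TE13R, a radioresistant line derived from it, before and after irradiation. They were all genes on the array whose platform symbol starts with SNORD, SNORA, SCARNA, RNU, SNAR, VTRNA, RNY or RN7S, or is RMRP, RPPH1, BCYRN1 or TERC, with the brightest probe standing for each gene. The host genes with SNHG symbols were left out. The rule found 70 genes with 72 probes, among 18665 named genes and 48803 probes. No probe carried a VTRNA, RNY or RMRP symbol. The 70 genes were 48 C/D box small nucleolar RNAs (snoRNAs), 8 H/ACA box snoRNAs, 2 small Cajal body RNAs (scaRNAs), 3 spliceosomal small nuclear RNAs (snRNAs), 4 snaR genes and 5 other stand-alone RNAs. They are 61 to 451 nt long in the RefSeq gene table.

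RNA was taken from TE13 and from TE13R at 0, 8 and 24 h after irradiation with X-rays, and each of the 6 combinations has 1 array. TE13 is labelled sensitive to radiation and TE13R resistant, and TE13R was selected from TE13 cells by repeated fractions of radiation. The titles name TE13R, while the cell line label of its 3 arrays reads TE13. The sources used here give neither the dose nor the handling of the 0 h cells, so that irradiation and anything else that separated the 0 h dishes from the later ones cannot be told apart. No array had a replicate. The lines were compared over the 3 time points and the time points over both lines. The p-values therefore rest on departures of single arrays from a time course shared by both lines. A real difference between the lines in their response counts as spread, and the spread of cultures was not measured.

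Most of these RNAs act as guides or scaffolds inside ribonucleoproteins. C/D box snoRNAs guide the methylation of ribosomal RNA and H/ACA box snoRNAs its conversion of uridine to pseudouridine, and scaRNAs do the same for spliceosomal RNAs in Cajal bodies. Human snoRNAs mostly lie in introns of host genes, many of them genes of ribosomal proteins, and are cut out of the spliced intron. The stand-alone RNAs have promoters of their own, and many of them are made by RNA polymerase III. The labelling began with reverse transcription of total RNA, and probe sequences were not used here. Whether a probe reported the mature small RNA, a longer precursor or the host intron was not tested.

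By the positions that RefSeq gives on GRCh38.p14, each of the 58 snoRNA and scaRNA genes lay inside a longer gene. There were 29 such host genes. Of these, 18 were genes of ribosomal proteins, which held 37 of the small RNA genes, and 6 were noncoding genes, which held 15. The strand of the small RNA genes was not in the table, so hosts were assigned by position alone. Sequences of the small RNAs themselves were not used here. The starts of 8 host genes of members described below are shown, a selection made after the members' values were seen, because the snoRNAs of a host share its transcript. Each sequence runs 5′ to 3′ from 20 bases before the annotated RefSeq start (GRCh38.p14) to the 10th base of the transcript, and capitals mark the unbroken run of C and T that begins at the start.
RPL13A, chr19:49487588-49487617, plus strand: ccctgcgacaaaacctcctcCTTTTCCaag
RPL7A, chr9:133348198-133348227, plus strand: attacccacaattccctttcCTTTCTCTCT
RPS13, chr11:17077658-17077687, minus strand: ggcgtttccactctcgctctCCTTTCgttg
RPS12, chr6:132814549-132814578, plus strand: ggcatgcgtgcggatgaggcCTCTTTCCCT
RPL3, chr22:39319614-39319643, minus strand: gacccgtaaggccgaccggcCTCTaccggc
HSPA8, chr11:123062127-123062156, minus strand: ggtggcgggcggaaaccggtCTCattgaac
RPL4, chr15:66504846-66504875, minus strand: acatatacagcgggagtggtaagcacttcc
SNHG1, chr11:62855876-62855905, minus strand: tctccccggggagattcgttCTCatttttc
A C at the start followed by at least 4 further C or T, read on the transcribed strand only, stood at a listed start of 12 of the 21 host genes with a window in the table (57.1%). The same held for 5.14% of the 27305 genes with a window. The runs of RPL13A, RPL7A, RPS13 and RPS12 met this definition, those of RPL3, HSPA8 and SNHG1 were shorter, and RPL4 had none. SNHG14, which like RPL4 holds 3 members, had none either and is not shown. Such a run is a known feature of transcripts of the translation machinery, and the match is a description of the letters.

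The deposited intensities are on a linear scale with the background already subtracted, and the arrays shared 1 distribution as deposited (medians 7.95 to 7.96). A detection limit of 20.2 was taken from the spread of the values below 0, and 37.3% of the probes lay above it on each array. The epithelial markers KRT5, KRT14, KRT8, KRT18, EPCAM and CDH1 were above the limit on all 6 arrays, and PTPRC, CD3E, COL3A1 and DCN, markers of leukocytes and fibroblasts, on 0. COL1A1 was above it on 3 arrays, and the endothelial marker PECAM1 was above it on all 6, at 29.6 to 138. Both 0 h arrays stood apart from the later ones over all genes. Of the 12783 genes tested in limma, 27.5% were called higher and 28.7% lower at 8 h than at 0 h at an adjusted p under 0.05, and 27.8% and 27.7% at 24 h. Bulk arrays cannot tell fewer cells with an RNA from less RNA per cell.

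Of the 70 small RNA genes, 35 were above the limit on all 6 arrays, 14 on some and 21 on none. All 8 H/ACA box snoRNAs and all 5 other stand-alone RNAs were seen on at least 1 array, and 18 of the 48 C/D box snoRNAs on none. The 21 genes seen on no array reached at most 17.9. Among them were SNORD107, SNORD108, SNORD64, SNORD116-2 and SNORD116-4 of the imprinted cluster on chromosome 15, whose C/D box snoRNAs are known mainly from brain, and SNORD109B of the same cluster was above the limit on 3 arrays at 21.4 to 48.7. SNAR-E, SNAR-G1 and SCARNA15 were also on none. A filter on dim probes kept 47 of the 70 genes for the tests. A gene that passed it only through its bright arrays had to differ, so each count over the 47 is given as a description.

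**Figure D1:**
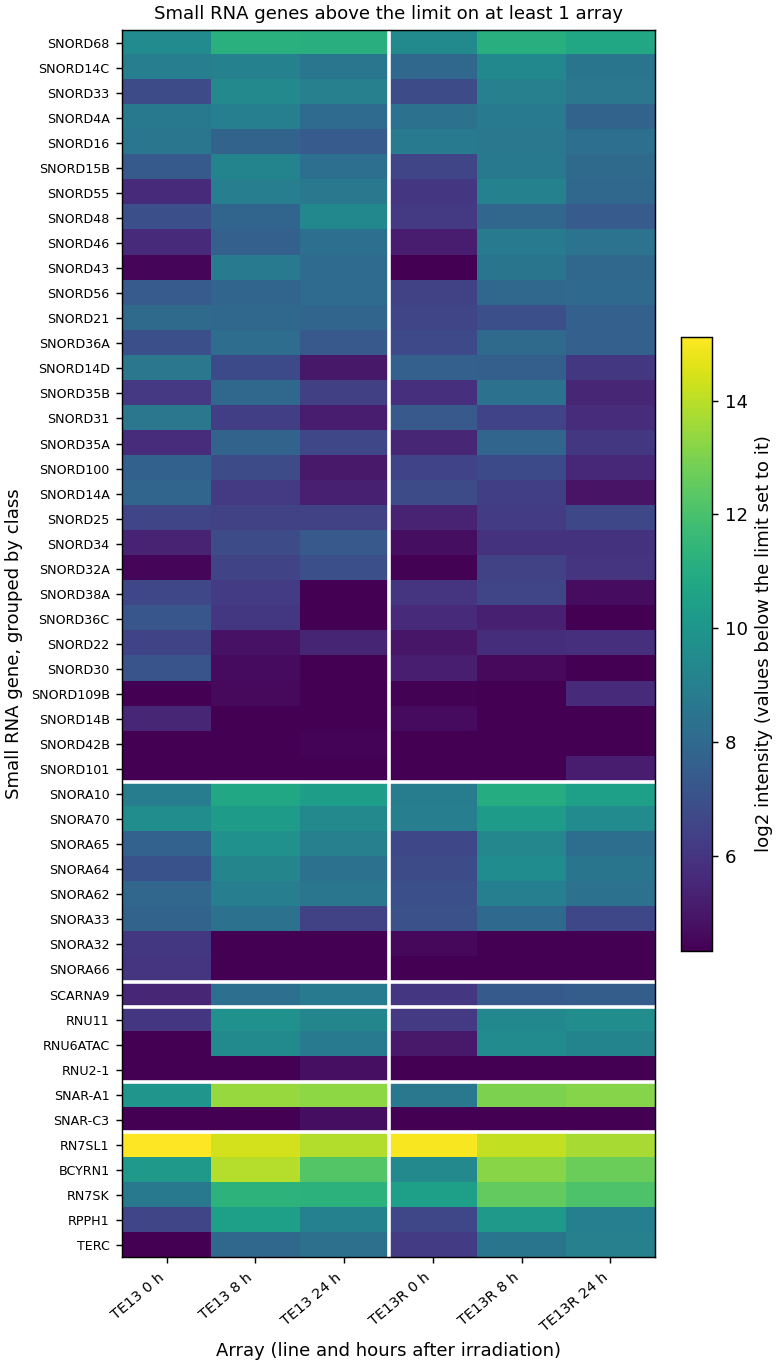
Intensity (log2, colour) of the 49 small RNA genes above the detection limit on at least 1 array, by class (rows) and by array (columns), with values below the limit drawn at it. Colours compare arrays within a row and not probes with each other, and in most rows the 0 h columns of both lines differ from the 8 h and 24 h columns.

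After irradiation the small RNA genes moved mostly upward. At 8 h, 25 of the 47 genes tested were called higher and 3 lower than at 0 h, beside 27.5% and 28.7% of all genes tested. At 24 h, 22 were called higher, beside 27.8% of all genes, and 10 lower, beside 27.7%. Over the 42 genes whose mean intensity was above the limit, the median log2 difference was 1.31 at 8 h and 0.98 at 24 h, and over the 11131 genes of the array that met the same condition it was 0.07 and 0.09. A rise of at least 2-fold at both times in both lines, on the scale of log2 with 16 added, was seen for 17 of the 47 genes and for 8.55% of all genes tested. A fall of that size was seen for 0 of the 47 and for 13.4% of all genes. The comparisons of 8 h and of 24 h with 0 h share the 0 h arrays, so their counts are not independent of each other. These were also the arrays that stood apart over all genes, and their part in the result was not tested.

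**Figure D2:**
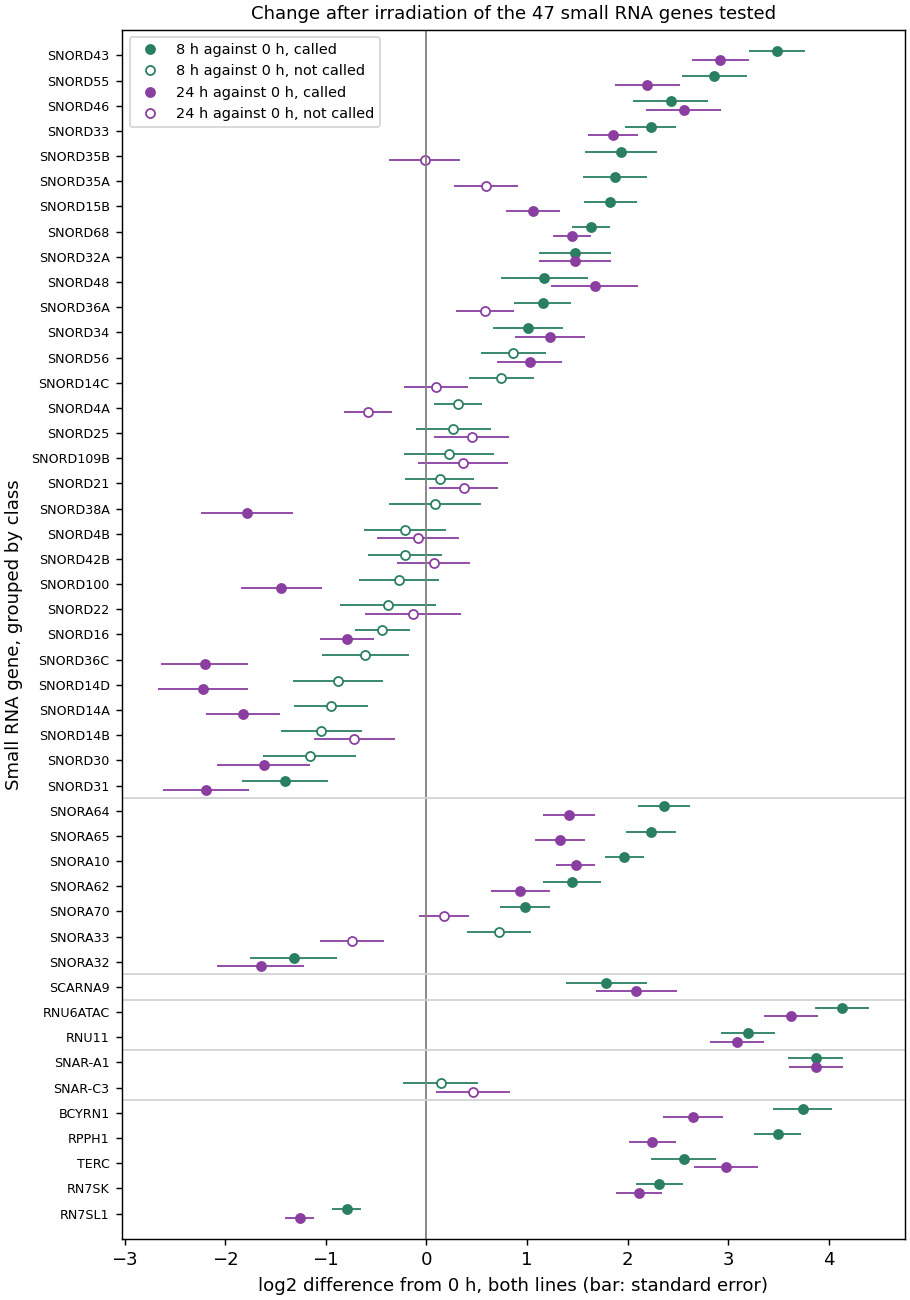
Fitted log2 difference of 8 h (green) and of 24 h (purple) from 0 h for the 47 small RNA genes tested, with standard errors as bars and filled points for an adjusted p under 0.05. The snRNAs, SNAR-A1 and the stand-alone RNAs other than RN7SL1 lie on the right at both times, and the C/D box snoRNAs spread to both sides.

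The stand-alone RNAs split into 4 that rose and 1 that fell. RN7SK is the 7SK RNA, which holds the elongation factor P-TEFb in an inactive complex. Its intensity was 414, 2503 and 2489.6 at 0, 8 and 24 h in TE13, and 1362, 5828 and 4393 in TE13R. Both later arrays of each line lay above its 0 h array, by 6.05-fold and 6.02-fold in TE13 and by 4.28-fold and 3.23-fold in TE13R. The log2 difference was 2.32 (SE 0.23, adjusted p = 0.00026) at 8 h and 2.11 (SE 0.23, adjusted p = 0.000556) at 24 h. The size depended on the probe, since the mean of both RN7SK probes gave 3.20 at 8 h and 2.84 at 24 h.

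RN7SL1 is the RNA of the signal recognition particle, which brings ribosomes that make secreted proteins to the endoplasmic reticulum. It was the only stand-alone RNA called lower than at 0 h. Its intensity was 35503, 21369 and 14961 in TE13, and 32626, 18068 and 13495 in TE13R. Both lines showed a drop at each step, and the 0 h arrays did not overlap the later ones. The log2 difference was -0.79 (SE 0.14, adjusted p = 0.00238) at 8 h and -1.26 (SE 0.14, adjusted p = 0.000599) at 24 h. RN7SL1 has many near-identical relatives in the genome, as have BCYRN1, SNAR-A1, RNU2-1 and RNU6ATAC, and which copies their probes read was not tested. What else the probes of RN7SK and the other members read was not tested either.

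RPPH1 is the RNA of RNase P, which trims the leader of transfer RNA precursors. It read 95, 1376 and 542 in TE13, and 100.4, 1164 and 505 in TE13R. The lines were nearly superimposed, with a peak at 8 h and a partial return at 24 h. The rise at 8 h was 14.5-fold in TE13 and 11.6-fold in TE13R, and the log2 difference of 24 h from 8 h was -1.25 (SE 0.23, adjusted p = 0.0176).

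BCYRN1, or BC200, is a primate RNA known as a translational regulator in neurons. It read 1145, 15332 and 4747 in TE13, and 679.8, 9387 and 6686 in TE13R. The rise at 8 h was of like size in both lines, 13.4-fold and 13.8-fold. TERC is the RNA template of telomerase. It was below the limit at 0 h in TE13 and read 249 and 321 there at 8 and 24 h, which is at least 12.3-fold and 15.9-fold higher, and it read 73.1, 368 and 527 in TE13R. TERC was higher at 24 h than at 8 h in both lines, and this difference did not pass the test (log2 0.42, SE 0.32, adjusted p = 0.413).

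**Figure D3:**
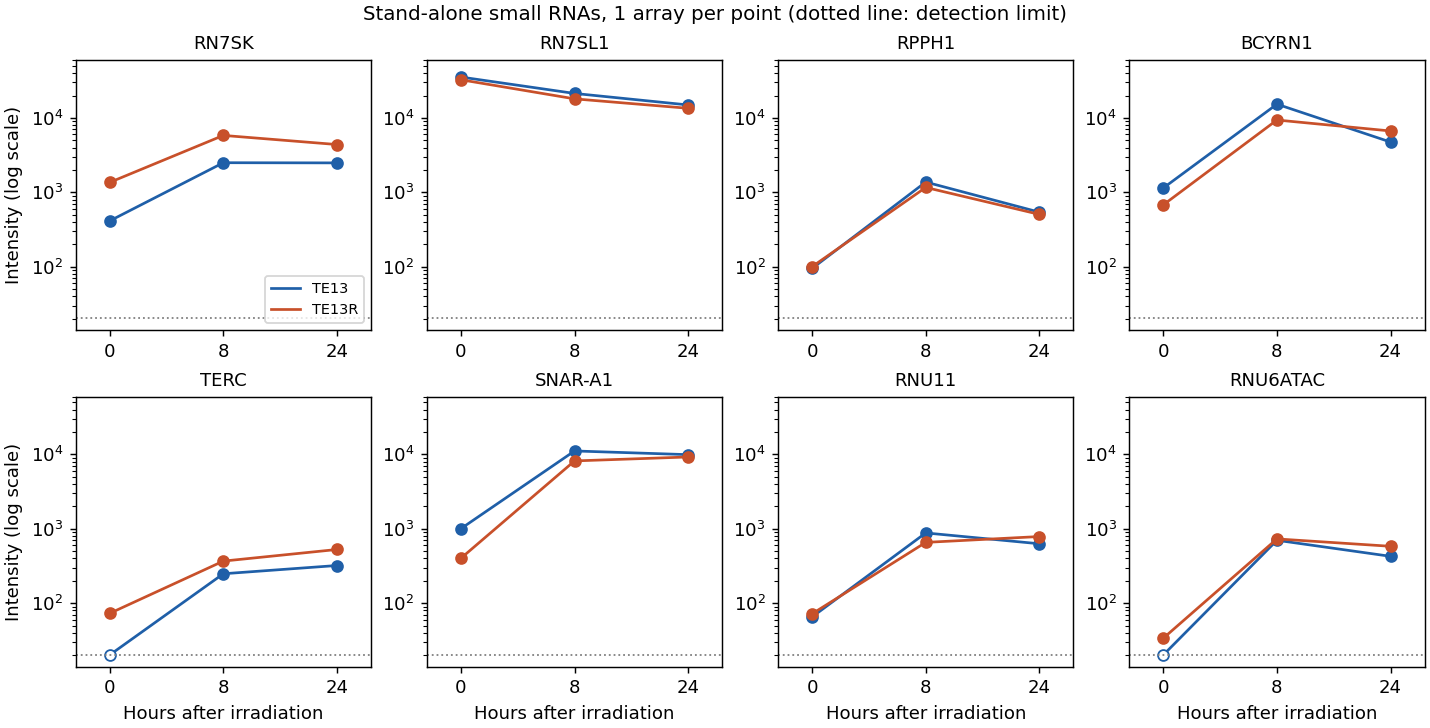
Intensity (log axis) against hours after irradiation for 8 small RNAs transcribed on their own, with TE13 in blue, TE13R in orange, 1 array per point, and hollow points at the dotted detection limit for values below it. RN7SL1 falls in both lines, the others are higher at 8 h and 24 h than at 0 h, and TE13R lies above TE13 for RN7SK at all 3 times.

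Of the 3 spliceosomal snRNAs, both that belong to the minor spliceosome, which removes a rare class of introns, rose after irradiation. RNU11, the U11 RNA that recognises the 5′ splice site of those introns, read 65.5, 881 and 629.7 in TE13, and 72.1, 657 and 787 in TE13R. RNU6ATAC, part of its catalytic core, was below the limit at 0 h in TE13 and read 701 and 427 there later, and 33.9, 732 and 582 in TE13R. In both genes each later array was at least 9.12-fold above the 0 h array of its line. The fitted log2 differences at 8 h were 3.20 (SE 0.27) for RNU11 and 4.13 (SE 0.27) for RNU6ATAC. RNU2-1, the U2 RNA of the major spliceosome, was above the limit only at 24 h, at 27.3 in TE13 and 20.8 in TE13R, and did not pass the filter.

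The snaR RNAs are a primate family that binds the double-stranded RNA-binding protein NF90. SNAR-A1 read 1006, 11139 and 9938 in TE13, and 403, 8183 and 9244 in TE13R. It stayed at its 8 h level at 24 h, with a log2 difference between these times of 0.01 (95% interval -0.62 to 0.63). Relative to 0 h the rise was 11.1-fold and 9.88-fold in TE13 and 20.3-fold and 23.0-fold in TE13R, and whether the lines differed in it was not tested. SNAR-C3 was above the limit on 1 array, that of TE13 at 24 h (26.9). Among the scaRNAs, SCARNA9 read 45.2, 310.3 and 429.9 in TE13, and 65.2, 166 and 185 in TE13R, higher after irradiation in both lines.

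Of the 7 H/ACA box snoRNAs tested, 5 were called higher and 1 lower at 8 h, beside 27.5% and 28.7% of all genes, and 4 higher and 1 lower at 24 h, beside 27.8% and 27.7%. SNORA10 and SNORA64 lie in the same host, RPS2. SNORA10 read 485, 1734 and 1331 in TE13, and 464, 2089.6 and 1382 in TE13R, and SNORA64 read 132, 611 and 329, and 110.4, 768 and 369.9. The 0 h array was the lowest of its line for both genes and the 8 h array the highest. SNORA65, in RPL12, read 211, 896 and 518 in TE13, and 102, 632 and 301 in TE13R. SNORA62, in RPSA, read 238, 494 and 375, and 127, 514 and 323. These 4 genes were called higher at both times, with log2 differences at 8 h of 1.45 to 2.36.

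SNORA70 and SNORA33 read highest at 8 h in both lines. SNORA70, in RPL10, read 793, 1242 and 678 in TE13, and 499, 1272 and 746 in TE13R. It was called higher at 8 h, and the log2 difference was 0.17 (SE 0.25) at 24 h. SNORA33, in RPS12, read 220.1, 328 and 87.5, and 129, 257 and 103, and was called lower at 24 h than at 8 h (log2 -1.46, SE 0.32, adjusted p = 0.0272). Its log2 difference of 24 h from 0 h was -0.74 (SE 0.32, adjusted p = 0.0822). SNORA32, in TAF1D, was the only H/ACA box snoRNA called lower than at 0 h. It was above the limit at 0 h alone, at 67.0 in TE13 and 23.8 in TE13R. SNORA66 was above it on the 0 h array of TE13 only (61.3) and was not tested.

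Of the 30 C/D box snoRNAs tested, 12 were called higher and 1 lower at 8 h, beside 27.5% and 28.7% of all genes. At 24 h 10 were called higher and 8 lower, shares near the 27.8% and 27.7% of all genes. The highest riser was SNORD43, in the host RPL3, which read 23.2, 431 and 276 in TE13. In TE13R it was below the limit at 0 h and read 368 and 253 later, at least 18.2-fold and 12.5-fold higher. The log2 difference was 3.49 (SE 0.28, adjusted p = 0.000216) at 8 h.

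RPL13A holds 4 of the snoRNAs, which in mice are known as mediators of the response to lipid overload. All of them were called higher at 8 h. SNORD33 read 113, 671 and 526 in TE13, and 116, 529.5 and 396 in TE13R. SNORD32A read 22.5, 92.5 and 125, and 21.4, 87.0 and 62.6, close to the limit at 0 h in both lines. SNORD34 read 40.8, 114 and 160.5, and 26.7, 60.0 and 59.5. These 3 were called higher at 24 h as well. SNORD35A read 52.5, 215 and 99.2 in TE13, and 45.4, 229 and 67.1 in TE13R, and was called lower at 24 h than at 8 h (log2 -1.28, SE 0.32, adjusted p = 0.0386). SNORD35B, which does not lie in RPL13A, also peaked at 8 h in both lines, with 70.3, 248 and 83.2 in TE13 and 55.9, 327 and 45.0 in TE13R. It was called higher at 8 h, and the log2 difference of 24 h from 0 h was -0.02 (95% interval -0.84 to 0.80).

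SNORD55 and SNORD46 rose in both lines. SNORD55 read 48.5, 495 and 407 in TE13, and 65.6, 531 and 246 in TE13R. SNORD46 read 49.2, 201 and 310.0, and 36.9, 444 and 351. Both were called higher at both times. SNORD38A read 98.6 and 74.4 at 0 and 8 h and fell below the limit at 24 h in TE13, at least 4.88-fold under 0 h, and it read 62.2, 95.9 and 26.1 in TE13R. Its log2 difference at 24 h was -1.78 (SE 0.46, adjusted p = 0.0118). That of SNORD46 was 2.56 (SE 0.37) and that of SNORD55 was 2.20 (SE 0.32).

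RPL7A holds a pair of tested snoRNAs. SNORD36A read 127, 291 and 164 in TE13, and 105, 264 and 199.9 in TE13R, and was called higher at 8 h (log2 1.16, SE 0.29). SNORD36C read 148 and 68.5 and then fell below the limit in TE13, and read 50.3 and 39.3 and then fell below it in TE13R. Its log2 difference at 24 h was -2.20 (SE 0.43, adjusted p = 0.00359). The difference between the 2 members of this host was not tested.

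The members of the U14 family, which is needed for the processing of 18S ribosomal RNA in yeast, did not move alike. SNORD14D, in HSPA8, read 394, 109 and 32.8 in TE13, and 198, 191 and 66.9 in TE13R, and SNORD14C of the same host read 486, 531 and 375, and 248, 663 and 369.9. SNORD14D was called lower at 24 h (log2 -2.22, SE 0.45, adjusted p = 0.00423), and SNORD14C was not called at either time. SNORD14A, in RPS13, read 232, 71.5 and 39.3, and 112, 81.6 and 29.9, and was called lower at 24 h. The family is close in sequence, so that cross-reading between its probes was not tested.

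SNHG1 is a noncoding host whose spliced RNA makes no protein. It held 7 members, of which 3 (SNORD26, SNORD27 and SNORD28) were seen on no array. SNORD31 read 393, 81.0 and 35.8 in TE13, and 161, 90.3 and 51.4 in TE13R, and was the only C/D box snoRNA called lower at both times (log2 -1.41, SE 0.43, at 8 h and -2.19, SE 0.43, at 24 h). SNORD30 read 139 and 24.9 in TE13 and 37.5 and 24.6 in TE13R at 0 and 8 h, was below the limit at 24 h in both lines, and was called lower at 24 h. In both genes the 0 h array was the highest of its line, and the drop by 8 h was larger in TE13 (4.85-fold for SNORD31 and 5.58-fold for SNORD30) than in TE13R (1.79-fold and 1.52-fold), a difference that was not tested. SNORD22, which is needed for 18S processing in Xenopus, read 93.8, 28.8 and 44.0 in TE13, and 32.1, 53.6 and 57.4 in TE13R. SNORD25 read 95.7, 87.5 and 86.4, and 42.2, 74.8 and 102. Neither was called.

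Among the remaining C/D box snoRNAs, SNORD68, in RPL13, read 733, 2321 and 2264 in TE13, and 696, 2195 and 1731 in TE13R. SNORD15B, in RPS3, read 168, 592 and 305, and 96.7, 417 and 265. Both were called higher at both times. SNORD48, in the noncoding host SNHG32 and often used as a reference RNA in assays of small RNAs, read 124, 231 and 660.0 in TE13, and 72.6, 239.7 and 171 in TE13R. It was called higher at both times, at 8 h narrowly (log2 1.17, SE 0.43, adjusted p = 0.0496), and of 10 alternatives 5 lost the call at 8 h and 2 that at 24 h. SNORD56, in NOP56, read 172, 229 and 274, and 86.7, 245 and 261, and was called higher at 24 h alone.

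Lower values at 24 h were found for SNORD100, in RPS12, which read 204, 112 and 33.6 in TE13, and 90.9, 109 and 48.0 in TE13R. SNORD16, in RPL4, read 378, 219.6 and 171, and 443, 403 and 307. Both were called lower at 24 h and not at 8 h. SNORD4A, in RPL23A, read 409, 507 and 273, and 339, 430.3 and 218, and was called only between 24 h and 8 h (log2 -0.90, SE 0.23, adjusted p = 0.0454). SNORD21, in RPL5, read 266, 252 and 228 in TE13, and 95.2, 124 and 199 in TE13R, and was called in no comparison. SNORD14B, SNORD42B and SNORD109B were above the limit on 1 to 3 arrays and had no call. SNORD101 was above it on 1 array and was not tested.

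Between 8 h and 24 h the small RNA genes moved downward where they moved. Of the 47, 7 were called lower, beside 5.23% of all genes tested, and 0 were called higher in limma, beside 7.63%, with 0 also at an unadjusted p under 0.05. The 7 were RPPH1, SNORA33, SNORD35A, SNORD35B, SNORD36C, SNORD38A and SNORD4A. The median log2 difference was -0.51 over the 42 genes whose mean intensity was above the limit and 0.01 over the 11131 such genes of the array. The 7 calls were lost with the line left out of the model or with no filter on dim probes, and the 7 became 17 when the 0 h arrays were left out, a setting under which the calls over all genes also went from 1643 to 3330 of 12783.

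Between TE13R and TE13, RN7SK was the 1 small RNA called. It was higher in TE13R at all 3 times, by 3.29-fold at 0 h, 2.33-fold at 8 h and 1.76-fold at 24 h, and the log2 difference was 1.24 (SE 0.19, adjusted p = 0.0129). That is 1 of 47 genes called higher, a share near the 2.63% of all genes tested, and 0 were called lower in limma, beside 2.43%. At an unadjusted p under 0.05 there were 3 higher and 5 lower. A further RN7SK probe ran the same way. It was below the limit at 0 h in TE13 and read 104 in TE13R, which is at least 5.13-fold higher, and it was 2.19-fold higher at 8 h (1063 against 486) and 2.53-fold higher at 24 h (802 against 317). The call of RN7SK was lost in 6 of 14 alternatives. In limma it was lost when the 8 h arrays were left out (adjusted p = 0.111), with no filter (adjusted p = 0.281) and without the mean-variance trend (adjusted p = 0.0839). It was also lost with no time point in the model and by the t-test of the paper's methods, adjusted or not.

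At 0 h most of the small RNA genes read lower on the TE13R array than on the TE13 array. Of the 35 genes above the limit on all 6 arrays, RN7SK among them, 28 were lower in TE13R at 0 h. The median ratio of TE13R to TE13 was 0.656. At 8 h 18 were lower, with a median of 0.976, and at 24 h 20 were, with a median of 0.933. Each time point has 1 array per line, so these are values of a pair of arrays with no test. The same ratios were not counted over all genes, so whether the pattern is particular to the small RNAs was not tested. TERC had the next highest difference of the stand-alone RNAs, below the limit against 73.1 at 0 h, 249 against 368 at 8 h and 321 against 527 at 24 h. TERC was higher in TE13R at each time, and the difference did not pass the test (log2 0.89, SE 0.26, adjusted p = 0.112).

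**Figure D4:**
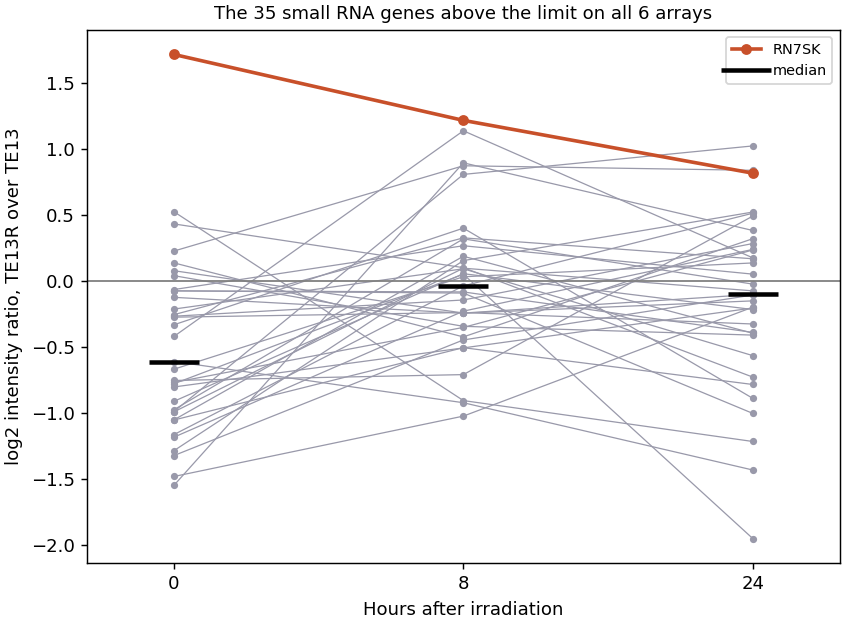
Ratio of TE13R to TE13 (log2) at 0, 8 and 24 h for the 35 small RNA genes above the limit on all 6 arrays, with RN7SK in orange and black bars at the median of the 35. RN7SK is above 0 at each time, and the median of the 35 is lowest at 0 h, where 28 of them are below 0.

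Host genes were compared with the snoRNAs inside them for the 27 pairs in which both were tested, which share 17 hosts. Of these, 7 pairs rest on host probes that could show little. The probes of RPS2, RPS12, RPL12 and RPS3 read 43139 to 64476 on every array, near the highest values of the arrays (61783 to 67593), where a rise may not be measurable, and that of RPL10 was above the limit on 2 arrays only (21.8 and 59.8). At 8 h both were called in 6 of the 27 pairs, all in the same direction. These pairs share 3 hosts, RPL13A, RPL7A and RPL13, and RPL13A holds 4 of the snoRNAs. They are therefore not 6 separate agreements. The snoRNA alone was called in 8 pairs and the host alone in 4. At 24 h both were called in 10 pairs, 8 in the same direction, with the snoRNA alone in 7 and the host alone in 7. RPL13A counts more than once here too, as does RPL23A, which was called alone beside SNORD4A, SNORD4B and SNORD42B. Over all genes tested, 27.5% were called higher and 28.7% lower at 8 h, and 27.8% and 27.7% at 24 h. Without the 5 hosts whose probes could show little, 20 pairs remained. The snoRNA alone was called in 3 of these and the host alone in 4 at 8 h, and in 2 and 6 at 24 h. Dim snoRNAs, which could show little either, were not left out. Among them were SNORD4B, above the limit on 0 arrays, SNORD42B, on 1, and SNORD14B, on 3. In these 20 pairs the median log2 difference at 8 h was 0.53 over the snoRNAs and -0.16 over their 12 hosts.

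RPL13A and its snoRNAs were among the pairs that rose together, the host probe having a log2 difference of 0.74 (SE 0.20) at 8 h and 1.004 (SE 0.20) at 24 h. RPL13, the host of SNORD68, was also called higher, at 1.70 (SE 0.22) and 1.78 (SE 0.22), as was SNHG32, the host of SNORD48, at 24 h (1.27, SE 0.22). HSPA8, a heat shock protein, fell with SNORD14D at 24 h, at -1.97 (SE 0.26). SNORD14C, in the same host, did not fall with it at 24 h (0.09, SE 0.32). TAF1D, a factor of RNA polymerase I, fell with SNORA32 at 24 h, at -2.41 (SE 0.35), and SNORA32 was below the limit on all later arrays.

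The opposite pairs at 24 h were SNORD36C, which fell while RPL7A rose (1.46, SE 0.27), and SNORD56, which rose while NOP56, a core protein of C/D box snoRNPs, fell (-1.49, SE 0.23). For RPL3, the host of SNORD43, the log2 difference was -0.23 (SE 0.16) at 8 h and -0.05 (SE 0.16) at 24 h, neither called.

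**Figure D5:**
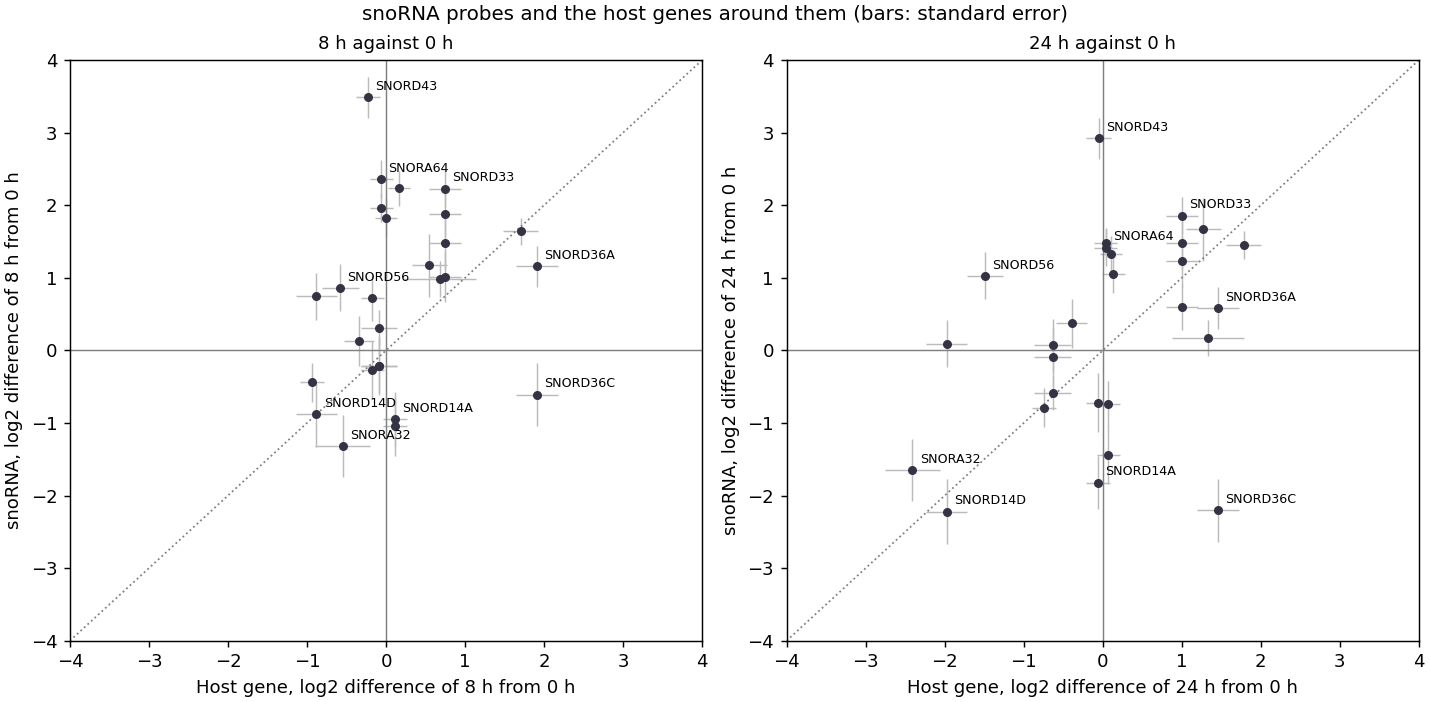
Log2 difference from 0 h of 27 snoRNA probes (vertical) against that of the host gene around each (horizontal), at 8 h (left) and 24 h (right), with standard errors as bars and equal change on the dotted line. Hosts near 0 include RPS2, RPS12, RPL12 and RPS3, whose probes are near the top of the scale, and at 24 h SNORD36C and SNORD56 lie in the opposite quadrants.

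The mRNAs of the proteins that work with these RNAs moved in both directions, and the proteins themselves were not measured. Here and below, the name of a protein stands for its mRNA. Of the 6 measured mRNAs of signal recognition particle proteins, 5 were called lower at 8 h and 5 at 24 h, as RN7SL1 was. Over all genes tested, 28.7% and 27.7% were called lower at these times. SRP54, which binds the signal peptide, had a log2 difference of -2.48 (SE 0.21) at 8 h, and SRP9, which helps to pause translation, -1.85 (SE 0.25). The median over the 6 was -1.04 at 8 h, beside 0.09 over all genes tested.

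Of the 9 measured mRNAs of RNase P and RNase MRP proteins, 5 were called higher and 0 lower at 8 h, when RPPH1 peaked. The shares over all genes tested were 27.5% and 28.7%. RPP25 had a log2 difference of 2.21 (SE 0.17) and POP7 of 1.59 (SE 0.19). At 24 h 3 were called higher and 3 lower, beside 27.8% and 27.7% of all genes. The median log2 difference over the 9 was 0.96 at 8 h and -0.68 at 24 h, when that of RPPH1 was still 2.25. Among the mRNAs of 5 core and assembly proteins of C/D box snoRNPs, 3 were called higher at 8 h. They were FBL, the methyltransferase (0.98, SE 0.15), SNU13 (1.22, SE 0.17) and RRP9 (2.75, SE 0.25). Of the 6 H/ACA protein mRNAs 4 were called higher and 1 lower at 8 h. The shares of all genes given above for 8 h and 24 h stand beside the counts of these lists too. At 24 h 2 of the C/D protein mRNAs were called higher and 2 lower, the latter being NOP56 (-1.49, SE 0.23) and NOP58 (-1.21, SE 0.35). Of the H/ACA protein mRNAs NHP2 was called higher at 24 h (1.11, SE 0.19), and DKC1, the pseudouridine synthase (-1.54, SE 0.23), and SHQ1 (-2.04, SE 0.32) lower.

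The mRNAs of the protein partners of 7SK RNA did not share a direction. At 8 h 3 of 7 were called higher and 3 lower. LARP7, which binds and stabilises 7SK RNA, was lower by a log2 difference of -2.19 (SE 0.25), MEPCE, which caps it, was higher by 1.45 (SE 0.24), and HEXIM2, an inhibitor of P-TEFb, was higher by 1.60 (SE 0.32). None of the 7 was called between the lines in limma, where RN7SK itself was. Of 28 genes of RNA polymerase III and its factors, 10 were called higher and 5 lower at 8 h, and 8 and 10 at 24 h. Of 32 mRNAs of spliceosomal snRNP proteins, 15 were called higher and 5 lower at 8 h, and 9 and 9 at 24 h. Of 13 genes of the Integrator complex, 2 were called higher and 7 lower at 8 h, and 3 and 7 at 24 h. For 14 genes of the nuclear RNA exosome the counts were 3 and 6, and 3 and 8. For 4 genes of Ro, La, vault and telomerase proteins they were 0 and 3, and 1 and 3. For 11 of snoRNP and scaRNP assembly they were 3 and 4, and 3 and 5. For 11 of the SMN complex and snRNP import they were 3 and 3, and 1 and 4. These shares stood beside 27.5% and 28.7% of all genes at 8 h, and 27.8% and 27.7% at 24 h.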

How the data were processed

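Deposited intensities of 6 Illumina Human-6 V3 arrays were used. The authors collected them in BeadStudio, and the deposited intensities are linear, background-subtracted and on 1 scale. Neither the software version nor how they were normalized is given in the sources used here, nor are detection p-values, so the DiffScore of the methods was not computed. Profiling is described as done in triplicate, but no replicate number is in the labels. KY170 and KY170R were not analysed here. Of 48803 probes, 27578 had 1 gene symbol, 13 several and 21212 none, and 27541 were found by Entrez identifier in RefSeq (GRCh38.p14), which changed 0 symbols.

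Negative intensities were raised to 0 and log2 taken after adding 16, which understates the change of dim genes. Probes in the upper 50% on at least 3 arrays were kept (24765), and each gene was read by its probe of highest mean (12783 genes). limma 3.58.1 (R 4.3.3; lmFit, eBayes with trend) fitted line and time point, with 2 residual and 5.79 prior degrees of freedom, and Benjamini-Hochberg adjustment over all genes. The line-by-time interaction was not tested, since it leaves no residual degrees of freedom. The detection limit was 3 times the root mean square of the negative values. Where 1 side of a ratio was below it, the fold is a bound against the limit.

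The members and the gene lists were chosen with earlier results of these data known. Members above the limit on all 6 arrays, above it on just the arrays of 1 line or 1 time, or called in a comparison were named with values; others named were chosen after their values were seen, as were the run of C and T at host starts and the split at the mean intensity. The host was the shortest protein-coding or long noncoding gene around a member by position, without the strand that had been planned. Chosen after the data were seen, host pairs were also counted without hosts whose probe read over 40000 on all arrays or was not above the limit on all. The other alternatives were other offsets, quantile normalization, median centring, other filters, the mean of probes, no trend, no line or no time point in the model, the methods' t-test and leaving out each time point. The fit was tested on simulated data.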

Additional observations from a re-analysis of the deposited data

Results flagged for a closer look

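For 3 C/D box snoRNAs, none of them called in any comparison, the later arrays lay below 0 h in TE13 and above it in TE13R. They were found by searching the 35 genes above the limit on all 6 arrays, and the pattern was not counted over all genes. At 0 h the ratio of TE13R to TE13 was 0.342 for SNORD22, 0.441 for SNORD25 and 0.358 for SNORD21. All their changes are taken from that pair of single arrays. For SNORD22, in SNHG1, both later arrays of TE13 were below its 0 h array (28.8 and 44.0 against 93.8), and both of TE13R were above (53.6 and 57.4 against 32.1), and the mean log2 change in TE13R minus that in TE13 was 2.19. For SNORD25, of the same host, this difference was 1.19, and for SNORD21, in RPL5, it was 0.87. In TE13 the ratios to 0 h were close to 1 for both, 0.915 and 0.903 for SNORD25 and 0.950 and 0.858 for SNORD21, and in TE13R they were 1.77 and 2.42, and 1.30 and 2.09. The fitted log2 changes over both lines had standard errors of 0.48 for SNORD22, 0.37 for SNORD25 and 0.34 for SNORD21. These are not errors of a difference between the lines. The differences between the lines were not tested, since each line has 1 array at each time.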

How the results depend on the processing

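The calls of small RNA genes at 8 h against 0 h ranged from 20 to 32 over the alternatives, around the 28 reported, and no called gene reversed under any alternative. At 24 h against 0 h, 32 genes were called, and 19 when dim probes were not filtered out, with 18665 genes tested, 17 of the 32 among them. At 24 h against 8 h, 7 were called, 2 without the mean-variance trend, 0 with no filter and 0 with no line in the model, and 17 with the 0 h arrays left out. Between the lines, RN7SK was the 1 gene called, and 0 were called in limma with no filter, without the trend or with no time point in the model, and 0 by the methods' t-test after Benjamini-Hochberg, which gave 1 unadjusted, SNORD21. Leaving out 1 time point gave 0 to 2 calls. SCARNA9 was then lower in TE13R without 0 h (log2 -0.996) and SNAR-A1 without 24 h (log2 -0.87). The log2 difference of RN7SK between the lines ranged from 1.01 to 1.502, with adjusted p from 0.00114 to 1. In these cases the cause was not tested, beyond the number of genes or arrays that the setting itself changes. The number of genes above the limit on all 6 arrays was 35, and 39 and 29 with limits of 2 and 5 times the root mean square. No paired analysis was possible because the labels give no replicate numbers to pair by. The comparison of the lines did have the time point in its model, and without it 14 genes of all tested were called in place of 647. Leaving out a line leaves no residual degrees of freedom for the times and was not run. Genes at or below the limit (20.2) at 0 h have at most bounds. The scale, brought to 1 distribution before deposit, cannot show a change in the total of small RNA per cell.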
